A study of Saccharomyces cerevisiae W303 with 28 samples.

Results

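The windows described here are those of the arms of chromosome 12 of budding yeast, a chromosome whose deposited windows include a short block with many times the usual DNA coverage. They were selected on measured values. The centre of the chromosome was put at the window from 167001 to 168000, the middle of the highest running mean over 21 windows of the immunoprecipitate (IP) of the Pk-tagged no-break library. Windows more than 50 kb from either end of the deposited chromosome and more than 30 kb from that centre were taken, which gave 1059 of the 12447 windows of 1 kb in the genome. Windows whose extract in the first HA-tagged wild-type library with a break exceeded 2 times its median were called multicopy and were read apart. These were 5 adjoining windows, from 474001 to 479000, of 6 such windows in the genome. The lowest of the 5 stood at 2.63 times the median in that extract, and the highest of the remaining windows, from 202001 to 203000, stood at 1.45 times. On the single-copy side, 87 windows made up the left arm (50001 to 137000), 276 lay between the centre and the block (198001 to 474000, called the inner right arm), and 691 lay beyond the block (479001 to 1170000, called the outer right arm).

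The series mapped Scc1 in the W303 strain by chromatin immunoprecipitation and sequencing, with 14 IP libraries and the 14 whole-cell extracts that go with them, all taken after 4 h of break induction or, in the strains whose site cannot be cleaved, of galactose. HA-tagged Scc1 (Scc1-6HA) was measured under nocodazole with a site-specific double-strand break in wild-type, rad17, pds5-AID and rad17 pds5-AID cells, in 2 libraries each, and in 1 wild-type library whose cut site cannot be cleaved. Pk-tagged Scc1 (Scc1-PK9) was measured in 1 library per condition, of which 3 had nocodazole (uncleaved wild type, cut wild type and cut rad17) and 1, cut wild type, had none. Cells without any tag, treated with nocodazole and break induction and with no mutation named, were precipitated with the HA antibody. The title of the HA no-break strain calls its site uncleavable while its treatment entry names break induction, and the title was followed. The pds5 allele is a degron, and since the labels do not mention auxin, the extent of Pds5 loss is not known. The labels do not tell whether replicates are separate cultures, and the p-values therefore reflect the spread among these libraries, possibly a technical one. In the main fits that spread was shared by all windows, bins or regions, so it is not that of a single feature.

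Scc1 is the kleisin of cohesin, the ring-shaped complex that holds sister chromatids together and forms chromatin loops. Along yeast chromosome arms cohesin gathers at discrete sites, often between convergent genes, and it is densest around centromeres. Pds5 is a cohesin-bound regulator of loading, release and maintenance, and Rad17 is a subunit of the checkpoint clamp that is loaded at damaged DNA. Chromosome 12 of budding yeast carries the ribosomal DNA, a tandem array of identical repeats that sequence assemblies hold in a few copies, so reads from the whole array pile up there. Cohesin is known to bind within the non-transcribed spacers of these repeats.

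That the block is ribosomal DNA could not be checked, because no genome of the build of the files was used here and the files name no genes. What the files show is excess coverage. Summed over the 5 windows, the coverage above single copy equalled 22.9 to 34.0 kb of single-copy DNA in 11 extracts and 47.5 to 65.3 kb in the other 3. Just before the block, from 449001 to 469000, lay 20 windows that were nearly empty, with a mean of 0.0146 to 0.0357 times the library median across the 14 extracts. The outer right arm also ran out of reads: 91 member windows from 1079001 to 1170000 had a mean of 0 to 0.000534 times the median, and 32 windows just before them, from 1046001 to 1078000, had 0.0232 to 0.0522 times. Windows with a mean relative extract under 0.25 over the HA libraries were left out, which kept 902 of 1059 members, namely all 87 of the left arm, 251 of the inner right arm, all 5 of the block and 559 of the outer right arm. The margin of 50 kb at the right end therefore fell within empty windows, and the kept windows ran up to 1079000.

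Below, "Scc1 per DNA" is log2 of the IP signal over the extract, after division of the extract by its own median, and "relative extract" is that denominator. The IP signal is calibrated with Candida glabrata cells according to the series description, so its overall level differs between libraries. "Relative to the library median" means with the median over all kept windows of the genome subtracted. Extract medians ran from 43.6 to 112 of deposited coverage. In the IP of the Pk library without nocodazole the median single-copy member window held only 2.18 times the smallest value above 0, and in that of the Pk no-break library 9.11 times, against 27.2 to 79.4 times in the other 12. In 3 extracts, those of both no-break libraries and of the second HA wild-type library with a break, coverage was uneven: its SD over single-copy member windows was 0.45 to 0.78 on the log2 scale, against 0.18 to 0.23 in the other 11. As 1 replicate of the HA wild-type group and the only HA no-break library are among these 3, the comparisons with these groups are also given for the IP signal alone.

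The relative extract of the block, averaged over its 5 windows, was 7.54 and 10.5 in the 2 HA wild-type libraries with a break and 14.1 in the one without. It was 5.58 and 6.23 in rad17, 6.80 and 7.80 in pds5-AID, and 6.24 and 6.39 in rad17 pds5-AID. Among the Pk libraries it was 6.74 in wild type with a break, 6.73 without nocodazole, 6.30 in rad17 and 13.01 without a break, and in the untagged strain it was 7.16. The 3 uneven extracts were thus the 3 highest, at 10.5 to 14.1, and the other 11 ran from 5.58 to 7.80. Within the HA strains, both rad17 libraries and both rad17 pds5-AID libraries lay below both wild-type libraries with a break, while the pds5-AID pair overlapped them. The extract of the first HA wild-type library chose these windows, so its value is a description and no test that includes it is given. Against the second wild-type library alone, which has an uneven extract, the log2 difference was -0.83 in rad17 and -0.53 in pds5-AID. Between break and no break it was -0.42 with that library. With the first wild-type library alone, the 3 differences were -0.35, -0.05 and -0.90 in the same order. Fits with 1 wild-type library hold no spread between the 2, so their p-values are not given. In the Pk pair, whose extracts are both even, rad17 stood at 6.30 and wild type at 6.74. Copies of the repeat per cell and the evenness of the extract cannot be told apart as sources of these differences.

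The excess was not spread evenly over the block. In the extract that chose them, the 5 windows stood at 2.63, 7.54, 6.90, 5.68 and 14.9 times the median from left to right. The fifth window was the highest in all 14 extracts, at 12.4 to 42.1 times, and the first the lowest, at 1.58 to 3.35. In 8 of the 13 other extracts the first window lay below 2 times the median. The sources used here do not say how the authors treated reads that map to several places, so the heights within the block hold for these files only.

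By the mean over windows, Scc1 per DNA was lower in the block than on the single-copy arms of the same chromosome. Relative to the library median, the block ran from -0.43 to 0.61 in the 13 tagged libraries and the mean of the arms from 0.50 to 0.80. The median window of the arms lay lower than their mean, at -0.15 and -0.16 in HA wild type with a break. The block had -0.002 and -0.08 there, so it was not below the median arm window in these 2 libraries. In HA wild type with a break the block stood at 3.95 and 4.07 and the single-copy arms at 4.63 and 4.79, in the first and second library. In pds5-AID the block stood at 3.84 and 3.95 against 3.75 and 4.28 on the arms, and in the untagged strain at 0.89 against 1.06. The block was lower than the arms in 12 of 13 tagged libraries, by -0.39 ± 0.31 on average (SD, n = 13), which is 0.761 times the level of the arms. The exception was the first pds5-AID library, at +0.09, and the largest difference was that of the HA no-break library, at -1.10. Without the library whose extract chose the windows the mean was -0.37 (n = 12, lower in 11), and an exact two-sided sign-flip test over these 12 libraries gave p = 0.00146 (Benjamini-Hochberg adjusted over 3 such comparisons, 0.00439). The mean difference was -0.29 (n = 10) without the 3 libraries with uneven extracts. The untagged strain, with no Scc1 tag, differed in the same direction by -0.18, and the mean was -0.42 (n = 13) with the untagged signal subtracted.

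**Figure D1:**
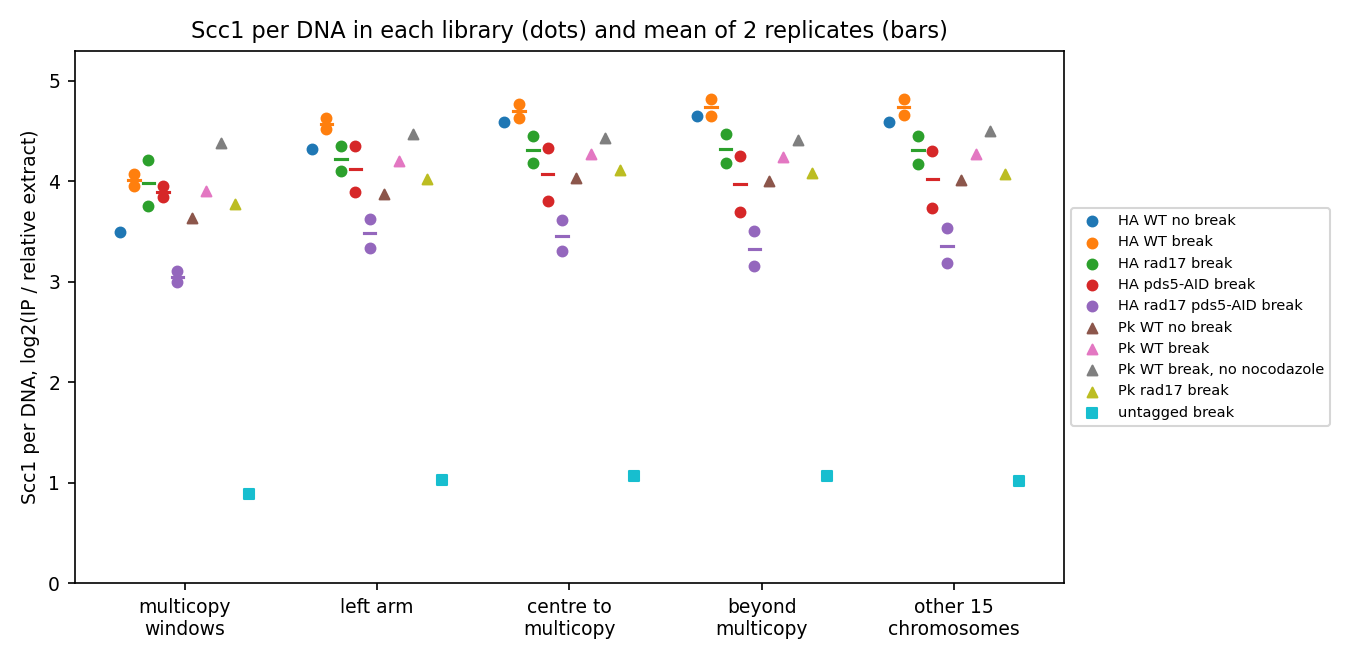
Scc1 per DNA (y axis, log2 of IP over relative extract) in the multicopy windows, the 3 single-copy stretches of chromosome 12 (left arm, inner right arm from the centre to the block, outer right arm beyond it) and the arms of the other 15 chromosomes, 1 point per library, with bars for the mean of 2 replicates. The rad17 pds5-AID pair is the lowest of the tagged libraries in each stretch, at 2.99 and 3.10 in the multicopy windows, and the untagged library lies near 1 throughout.

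Within the block the level of Scc1 per DNA was higher towards the outer side, and the strongest signal lay just outside. Over the 13 tagged libraries, the median Scc1 per DNA of the 5 windows was 2.66, 2.83, 3.62, 4.00 and 4.20. The untagged strain, with no Scc1 tag, had 0.51, 0.60, 1.03, 0.74 and 1.00 in them. In the Pk library without nocodazole they had 4.37, 3.74, 3.74, 4.55 and 4.67. The next window, from 479001 to 480000, had a median of 7.02 (range 5.38 to 8.81), and the one after it 6.77 (5.15 to 7.38). Their extracts stood at 0.43 to 1.14 and 0.85 to 1.51 times the median, and the untagged strain at 1.00 and 1.38 there. At 479001 the lowest extracts were the 3 uneven ones. They stood at 0.43 (HA no-break), 0.54 (Pk no-break) and 0.57 (second HA wild type with a break). Scc1 per DNA was highest there in the same 3 libraries, at 8.81, 7.89 and 8.44. On the other side of the block the 5 windows from 469001 to 474000 had medians of 4.25, 3.86, 3.60, 3.04 and 3.09. The first 2 outer windows, with a lowest value of 5.15 in any tagged library, lay above all 5 block windows, whose highest value was 4.67.

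**Figure D2:**
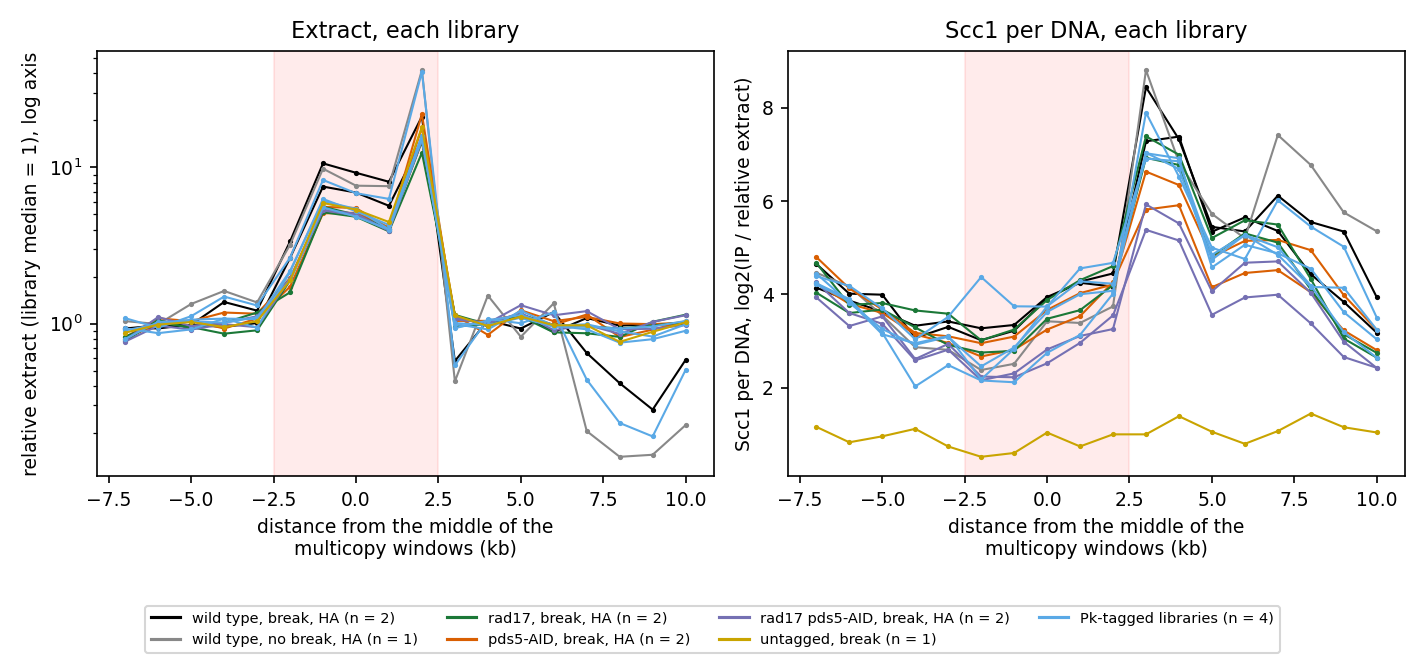
Relative extract (left, log axis) and Scc1 per DNA (right, log2) in the multicopy windows (shaded) and the adjoining single-copy windows, 1 line per library, against the distance in kb from the middle of the block. The extract peaks at the fifth window of the block in every library. Scc1 per DNA of the tagged libraries peaks in the next window outside it, except in the first HA wild-type library with a break (7.28, then 7.38) and the first pds5-AID library (5.82, then 5.91), which are highest 1 window further out.

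The 4 comparisons of the design were then read in the block, over the HA libraries. In rad17 pds5-AID the block carried 3.10 and 2.99, in pds5-AID 3.84 and 3.95, in rad17 3.76 and 4.21, in wild type with a break 3.95 and 4.07, and without a break 3.50. The rad17 pds5-AID pair lay below all the other tagged libraries. Between pds5-AID and rad17 pds5-AID the median difference over all windows of the genome was -0.67. Scc1 per DNA in the block fell by 0.85 ± 0.26 (SE) on the log2 scale, to 0.556 times (limma adjusted p = 0.00741 over 80 regions). This call was lost without the first rad17 pds5-AID library (-0.90). It was also lost with each region's own spread in place of 1 shared by all regions (limma adjusted p = 0.0780), and relative to the library median. On that last scale the block stood at 0.42 in pds5-AID and 0.29 in rad17 pds5-AID. The comparisons with wild type were read without the library whose extract chose the windows. This leaves 1 wild-type library with a break, the one with an uneven extract. The differences were -0.18 in pds5-AID, -0.09 in rad17 and 0.57 between break and no break. The rad17 effect in pds5-AID, less that in wild type, was -0.76 in the block on the same libraries. These fits hold no spread between wild-type libraries, so their p-values are not given and no call is made from them. In this bulk material fewer cells with bound Scc1 and less Scc1 per cell cannot be told apart.

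For the IP signal alone, which uses no extract, the block had -1.05 ± 0.25 between pds5-AID and rad17 pds5-AID (limma adjusted p = 0.000875), -0.41 in pds5-AID against wild type (0.133), -0.62 in rad17 (0.157) and -0.15 between break and no break (0.919). Its 5 windows did not share 1 value in pds5-AID: for the IP alone the first 4 fell, beside 41.3% of all windows, with -1.02, -1.07, -1.06 and -1.20 (adjusted p = 0.0017, 0.000918, 0.00103 and 0.000177), and the fifth, the highest in extract, had 0.08 (0.815). In rad17 the same 5 had -1.02, -0.995, -0.95, -1.04 and -0.31 for the IP alone (adjusted p = 0.0291, 0.0373, 0.0523, 0.0263 and 0.360), so that 3 fell, beside 1.23% of all windows. Per DNA the 5 windows had -0.33, -0.33, -0.47, -0.48 and -0.07 in pds5-AID. In rad17 they had -0.26, -0.27, -0.25, -0.28 and 0.09 per DNA. Both sets of values include the extract which chose the windows. The mean relative extract of the first 4 was 2.99, 9.08, 8.07 and 6.89 in wild type. It was 1.84, 5.34, 5.31 and 4.09 in pds5-AID and 1.74, 5.38, 4.91 and 3.97 in rad17. In the fifth it was 18.1 in wild type, 19.9 in pds5-AID and 13.5 in rad17. Relative to the library median, Scc1 per DNA in the block stood at 0.46 ± 0.11 (SD, n = 2) in rad17, 0.42 ± 0.26 in pds5-AID, 0.29 ± 0.25 in rad17 pds5-AID, -0.04 ± 0.05 in wild type with a break and -0.43 without. The IP alone on this scale differed from wild type by 0.14 in pds5-AID and -0.12 in rad17, with limma adjusted p of 0.387 and 0.526.

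The single-copy arms carried Scc1 at the level of the arms of the other chromosomes. Over the 13 tagged libraries the difference was -0.01 ± 0.03 (SD), with 7 libraries lower and 6 higher (exact two-sided sign-flip p = 0.259, adjusted over 3 comparisons 0.259). The outer and inner right arms differed by -0.03 ± 0.06 (8 of 13 lower, p = 0.108, exact, adjusted 0.161). The difference ran from -0.15 to -0.08 in the 4 libraries with pds5-AID and from 0.00 to 0.05 in the other 5 HA libraries, and was -0.03 to -0.02 in the 4 Pk libraries. In HA wild type with a break the left arm stood at 4.57 ± 0.07 (SD, n = 2), the inner right arm at 4.70 ± 0.10 and the outer right arm at 4.74 ± 0.12. These levels were 11.7, 12.4 and 12.7 times those of the untagged strain.

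**Figure D3:**
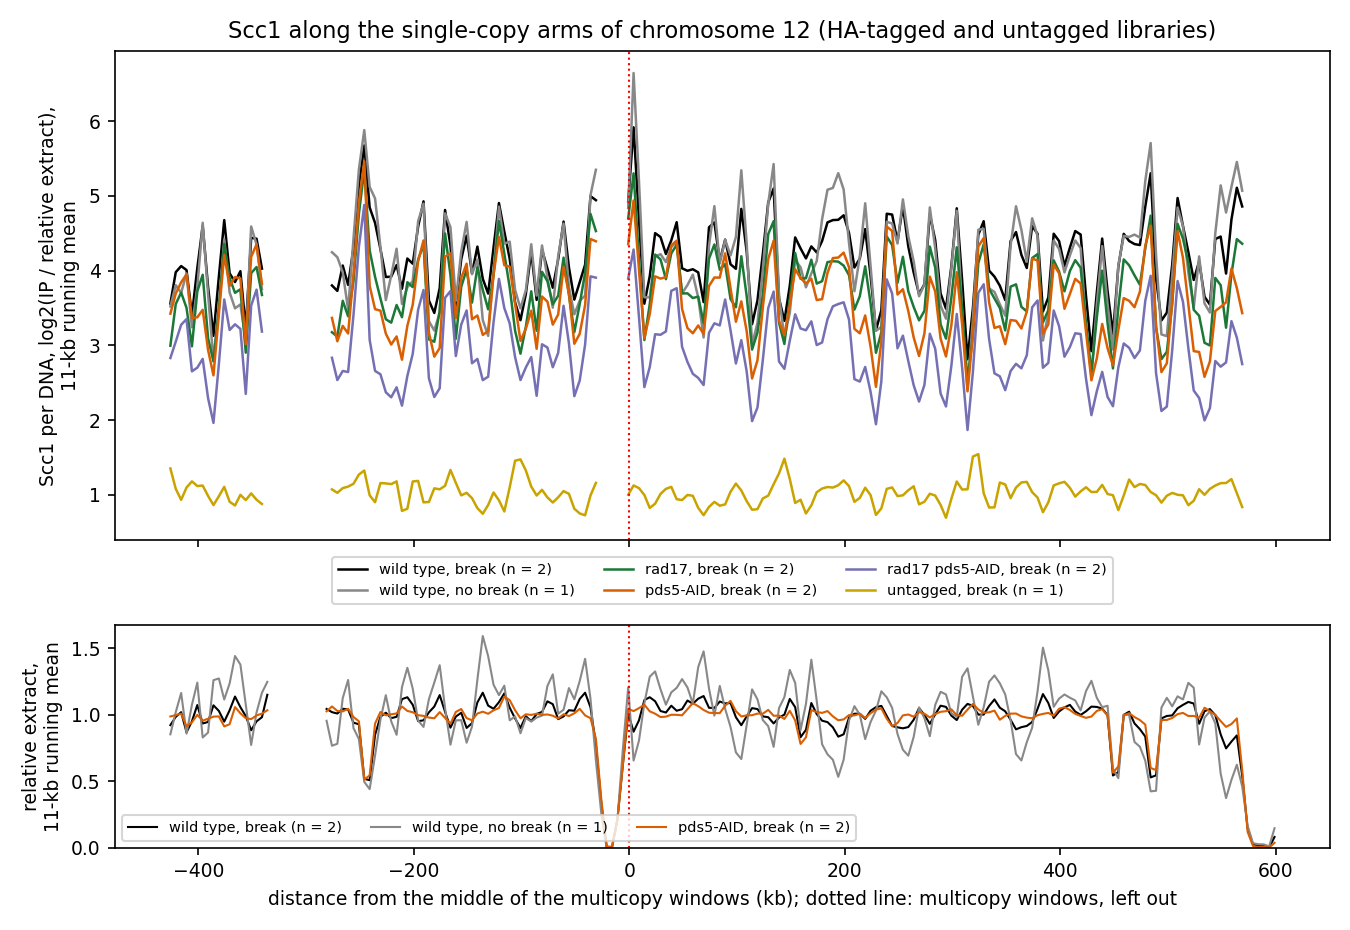
Scc1 per DNA (top, log2, mean over 11 windows) and relative extract (bottom) along the single-copy windows of chromosome 12 for the HA and untagged groups, against the distance from the multicopy windows (dotted line), which are left out. The peaks line up between genotypes, the rad17 pds5-AID line lies lowest of the tagged ones, and the extract drops to near 0 just before the block and at the outer end.

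The pattern of peaks was shared between libraries. Over the 897 kept single-copy windows, Pearson's r between replicates was 0.949 in wild type, 0.979 in rad17, 0.974 in pds5-AID and 0.970 in rad17 pds5-AID. Between the HA and Pk tags it was 0.965 in wild type with a break, against 0.313 between the same HA library and the untagged one. These are descriptions over windows, which share libraries and neighbours. The SD of Scc1 per DNA over the 897 windows was 0.99 and 1.11 in pds5-AID and 0.97 and 1.06 in rad17 pds5-AID, against 1.18 and 1.33 in wild type and 1.15 and 1.19 in rad17. Among the HA libraries those with the degron lay below those without it and did not overlap them, and the same held on the arms of the other chromosomes, where 8367 windows gave 0.98 to 1.10 with the degron and 1.16 to 1.54 without. Windows at 4 or more times the library median numbered 54 and 60 in pds5-AID and 54 and 67 in rad17 pds5-AID, against 83 and 103 in wild type and 91 and 97 in rad17. In the untagged strain 0 of 897 did.

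The 10 strongest sites were taken from the Pk wild-type library with a break, as the highest of 81 local maxima over 11 windows, and were then read in the HA libraries. All lay on the right arm, 4 on the inner and 6 on the outer side. They began at 225001, 283001, 351001, 397001, 479001, 634001, 717001, 805001, 852001 and 988001. The nearest to the centre, 58 kb from it, also had the highest mean of the 10 in HA wild type with a break, at 7.80 and 8.11. The site beside the block, at 479001, stood at 7.28 and 8.44. The lowest of the 10 in HA wild type, at 805001, had a mean of 7.12 ± 0.20 (SD, n = 2), and the untagged strain lay between 1.00 and 1.88 at all 10.

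Per DNA, the site beside the block had the largest fall in pds5-AID among these 10. It stood at 5.82 and 6.63 in pds5-AID, at 6.93 and 7.39 in rad17 and at 5.38 and 5.93 in rad17 pds5-AID. The wild-type pair lay above the pds5-AID pair with no overlap. The fall was -1.64 ± 0.32 (SE) from wild type to pds5-AID (limma adjusted p = 7.94e-06 over 11642 windows). That SE is shared by all windows, while the replicates at this site had an SD of 0.82 in wild type and 0.58 in pds5-AID. With each window's own spread 0 of the 11642 windows fell past the threshold in limma. With the shared spread the call at this site held for the IP alone (-1.23, limma adjusted p = 0.000117). Relative to the library median it held as well (-1.06, limma adjusted p = 0.0158). The relative extract there was 0.57 in the second wild-type library and 1.12 in the first. Of the 10 sites, 6 fell in pds5-AID, beside 34.8% of all windows, and the median difference was -0.92, beside -0.51 over the single-copy windows. The other 5 were those at 283001 (-1.30, adjusted p = 0.000499), 351001 (-1.08, 0.00423), 397001 (-1.08, 0.00423), 852001 (-0.90, 0.0182) and 988001 (-0.94, 0.0134). The strongest site, at 225001, had -0.54 ± 0.32 (adjusted p = 0.173), and the other 3 had -0.54, -0.69 and -0.64 (adjusted p = 0.175, 0.0759 and 0.102). For the IP alone 8 of the 10 fell, with a median of -0.76, beside 41.3% of all windows of the genome. The site at 397001 then had -1.22, close to the -1.23 at 479001. On the scale relative to the library median 2 of the 10 fell, beside 13.4% of all windows, those at 397001 (-0.50, adjusted p = 0.0451) and 479001. Between pds5-AID and rad17 pds5-AID 3 of the 10 fell (beside 28.2% of all windows), those at 283001, 634001 and 717001, with a median of -0.69. For the IP alone 8 of the 10 fell in that comparison, beside 66.7% of all windows. Between wild type and rad17 no site passed the threshold in limma (0 of 10, lowest adjusted p 0.0635, median -0.56, beside 6.55% of all windows that fell). Between no break and break 1 of 10 fell, beside 3.59% of all windows, the site at 283001 (-1.54, limma adjusted p = 0.00515, IP alone -0.0092). Relative to the library median 5 of the 10 fell with a break, beside 12.1% of all windows, and for the IP alone 0 of 10 did in limma, with values from -0.25 to 0.12.

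**Figure D4:**
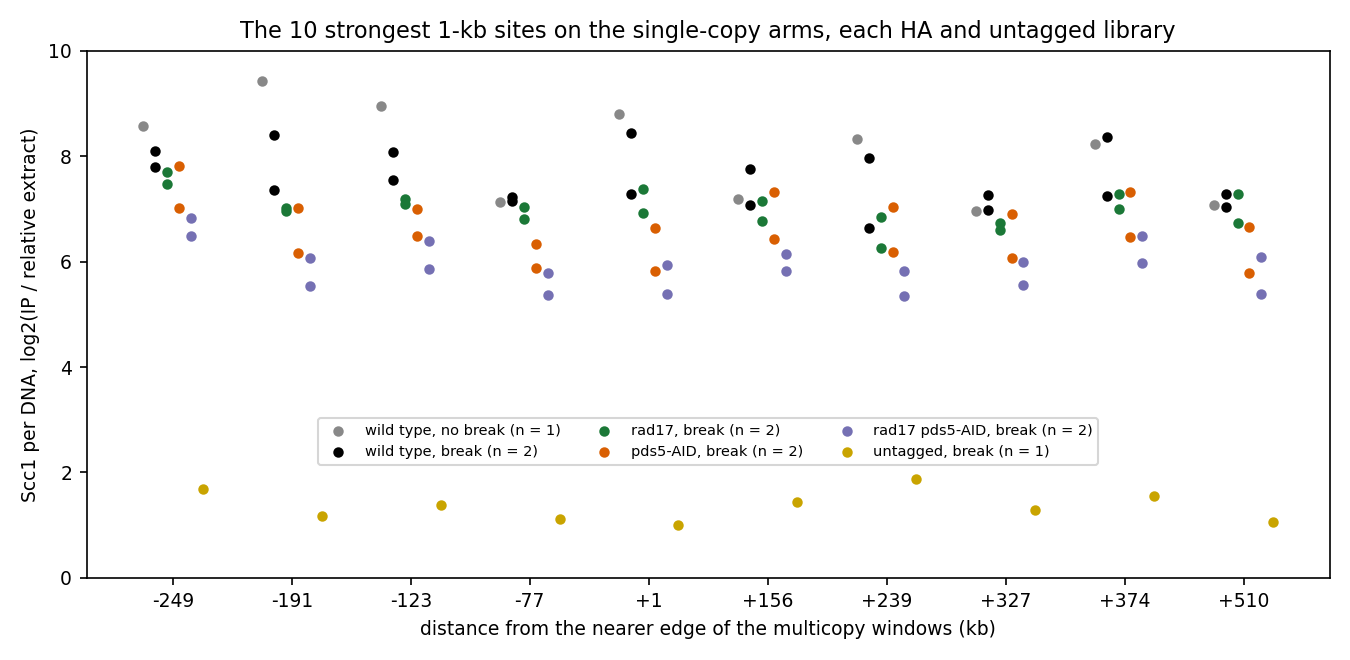
Scc1 per DNA (y axis, log2) at the 10 strongest single-copy sites in each HA and untagged library, placed by their distance in kb from the nearer edge of the multicopy windows (negative: towards the centre; the spacing of the sites on the axis is not to scale). At +1 kb, beside the block, both pds5-AID libraries (5.82 and 6.63) lie below both wild-type libraries (7.28 and 8.44).

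Scc1 per DNA fell in pds5-AID along most of the single-copy arms. The single-copy arms stood at 4.63 and 4.79 in wild type and at 3.75 and 4.28 in pds5-AID, with no overlap. The level fell by 0.69 ± 0.26 (SE), to 0.618 times (limma adjusted p = 0.0113), beside -0.72 on the arms of the other chromosomes, and for the IP alone it had -0.70 (adjusted p = 0.00948). The fall was -0.45 on the left arm (adjusted p = 0.0980), -0.63 on the inner right arm (0.0202) and -0.76 on the outer right arm (0.00759). The call for the single-copy arms was lost without the second wild-type library (-0.62, adjusted p = 0.118), without the first pds5-AID library (-0.43, 0.143) and with each region's own spread (0.0865). In windows of 50 kb, 17 of 19 bins on the arms fell, beside 83.7% of the 246 bins of the genome, and for the IP alone 17 did, beside 85% of all bins. The bin from 1000001 to 1050000, the outermost one, fell most, with -1.15 ± 0.26 (limma adjusted p = 0.000357), and the bin from 900001 to 950000 had -0.97 (0.0020). The bin from 100001 to 150000, which reaches up to 30 kb from the centre, had -0.27 ± 0.26 (0.304), and the one from 300001 to 350000 had -0.50 (0.0658).

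Relative to the library median these differences took both signs. The bin nearest the centre on the left arm rose by 0.31 ± 0.06 (limma adjusted p = 5.21e-06), the only rise among the 19, beside 7.72% of all bins. In the same comparison 8 of the 19 fell, beside 50.8% of all bins, led by the outermost bin at -0.57 ± 0.06 (2.05e-17) and the one from 900001 to 950000 at -0.39 (7.07e-09). With each bin's own spread 1 bin rose and 8 fell, beside 2.03% and 39.4% of all bins. By region, the outer right arm had -0.18 ± 0.07 (limma adjusted p = 0.0416), and the left arm had 0.13 ± 0.07 (0.118).

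Of 902 member windows, 295 fell in pds5-AID, beside 34.8% of the 11642 windows of the genome, and none rose (0 at adjusted p and at unadjusted p in limma, beside 0.0258% of all windows). The IP alone gave 351 falls, beside 41.3% of all windows. With each window's own spread 0 of the 902 passed in limma (280 fell at an unadjusted p under 0.05). With the extract as deposited 7 fell, beside 0.876% of all windows. For counts that leave out a library, here and below, the share over all windows was not computed. The number that fell was 114 without the second wild-type library and 91 without the first pds5-AID library. The share that fell was 21.8% on the left arm, 30.3% on the inner and 35.8% on the outer right arm. In the block 0 of 5 fell, but this count includes the extract which chose these windows. For the IP alone 4 of the 5 fell there, beside 41.3% of all windows. When taken relative to the library median, 124 fell and 100 rose, beside 13.4% and 8.51% of all windows, and the left arm had 24 rises among its 87 windows and 4 falls. The called windows joined into 84 stretches. The one with the largest change ran from 697001 to 703000, where the window at 699001 had 6.57 and 6.78 in wild type, 5.78 and 6.36 in rad17, 4.34 and 4.71 in pds5-AID and 3.86 and 3.84 in rad17 pds5-AID. Wild type and pds5-AID lay far apart there, and the fall was -2.14 ± 0.32 (adjusted p = 3.68e-09) and -2.11 for the IP alone, with a mean relative extract of 0.90 in wild type and 0.93 in pds5-AID. A stretch of 12 called windows from 997001 to 1012000 had its largest fall at 1008001, from 4.94 and 5.24 to 2.87 and 3.20 (-2.05, adjusted p = 1.8e-08, IP alone -1.90). The other 3 of the top 5, with peaks at 236001, 496001 and 582001, fell by 2.04 to 2.07 in size, and for the IP alone had -1.35, -1.37 and -1.46. In these 3 the relative extract of the second wild-type library was 0.28, 0.36 and 0.40.

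In rad17 pds5-AID the single-copy arms carried less Scc1 per DNA than in pds5-AID, by a similar amount in each bin. The single-copy arms stood at 3.22 and 3.55 in rad17 pds5-AID, below both pds5-AID libraries at 3.75 and 4.28. The difference was -0.63 ± 0.26 (SE), to 0.644 times (limma adjusted p = 0.0199), beside -0.66 on the other arms. It had adjusted p of 0.203 without the second pds5-AID library, 0.218 without the first rad17 pds5-AID library, and 0.102 with each region's own spread. All 19 bins fell, by 0.55 to 0.68 in size, beside 96.7% of all bins, and for the IP alone all 19 did, beside 98.4%. With the library median subtracted none of the 19 passed the threshold in limma (1 rose at an unadjusted p under 0.05, beside 3.66% of all bins that rose and 1.63% that fell after adjustment), with values from 0.03 to 0.16.

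Of the 902 member windows, 169 fell in rad17 pds5-AID, beside 28.2% of all windows, and none rose (0 also at unadjusted p in limma, beside 0.0172%). The IP alone gave 538 falls, beside 66.7% of all windows. None of the 902 passed in limma with each window's own spread (0, with 254 falls at an unadjusted p under 0.05). With the extract as deposited 0 passed in limma either (29 such falls), beside 0.206% of all windows that fell after adjustment. The number that fell was 628 without the first pds5-AID library, 0 without the second, 0 and 12 without the first and second rad17 pds5-AID library, and 29 without either rad17 library. No member window passed in limma relative to the library median, with 43 rises and 4 falls at an unadjusted p under 0.05, beside 0.0344% of all windows that rose and 0.326% that fell after adjustment. In the block, 2 of 5 windows fell, those at 476001 (-0.79, adjusted p = 0.0492) and 478001 (-0.83, 0.0439). The largest change lay in the stretch from 239001 to 248000, where the window at 245001 stood at 3.38 and 4.32 in pds5-AID and at 2.60 and 2.59 in rad17 pds5-AID (-1.25 ± 0.32, adjusted p = 0.00704, IP alone -1.13). The other 4 of the top 5 had their peaks at 917001, 367001, 495001 and 1028001 and fell by 1.10 to 1.14 in size. The mean relative extract at these 5 peaks was 0.864 to 1.30 in pds5-AID and 0.866 to 1.33 in rad17 pds5-AID, and the pairs overlapped at none of them.

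The rad17 libraries lay lower than wild type on the arms without passing the test. The single-copy arms stood at 4.17 and 4.45 in rad17, against 4.63 and 4.79 in wild type. The difference was -0.40 ± 0.26 (SE, limma adjusted p = 0.208), beside -0.43 on the other arms, and it was -0.40 for the IP alone (adjusted p = 0.159) and -0.16 in the Pk pair. No bin of the 19 passed (0 in limma, with values from -0.64 to -0.27, of which 2 passed an unadjusted p of 0.05). Of the 19 bins, 8 rose relative to the library median, beside 23.6% of all bins, the largest by 0.26 ± 0.06 from 100001 to 150000 (limma adjusted p = 0.000461), and with each bin's own spread none did in limma (9 at an unadjusted p under 0.05).

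Of the 902 member windows, 45 fell in rad17, beside 6.55% of all windows, and none rose (0 also at unadjusted p in limma, beside 0.0172%). The 5 with the largest falls lay in stretches that peaked at 203001, 485001, 388001, 82001 and 236001, with -1.40 to -1.51. For the IP alone 6 of the 902 fell, beside 1.23% of all windows. With each window's own spread (79 falls at an unadjusted p under 0.05) or the extract as deposited (9 such falls) 0 passed in limma. The 5 windows had -0.65 to -0.96 for the IP alone, and only the window at 82001 passed (adjusted p = 0.0463). In these 5 windows the relative extract of the second wild-type library was 0.28 to 0.52. The count of 45 was 99 without the first wild-type library, 0 without the second, 0 and 14 without the first and second rad17 library, and 95 without either pds5-AID library. Relative to the library median no member window passed in limma, with 149 rises and 33 falls at an unadjusted p under 0.05, beside 0.112% of all windows that rose and 0.0601% that fell after adjustment.

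**Figure D5:**
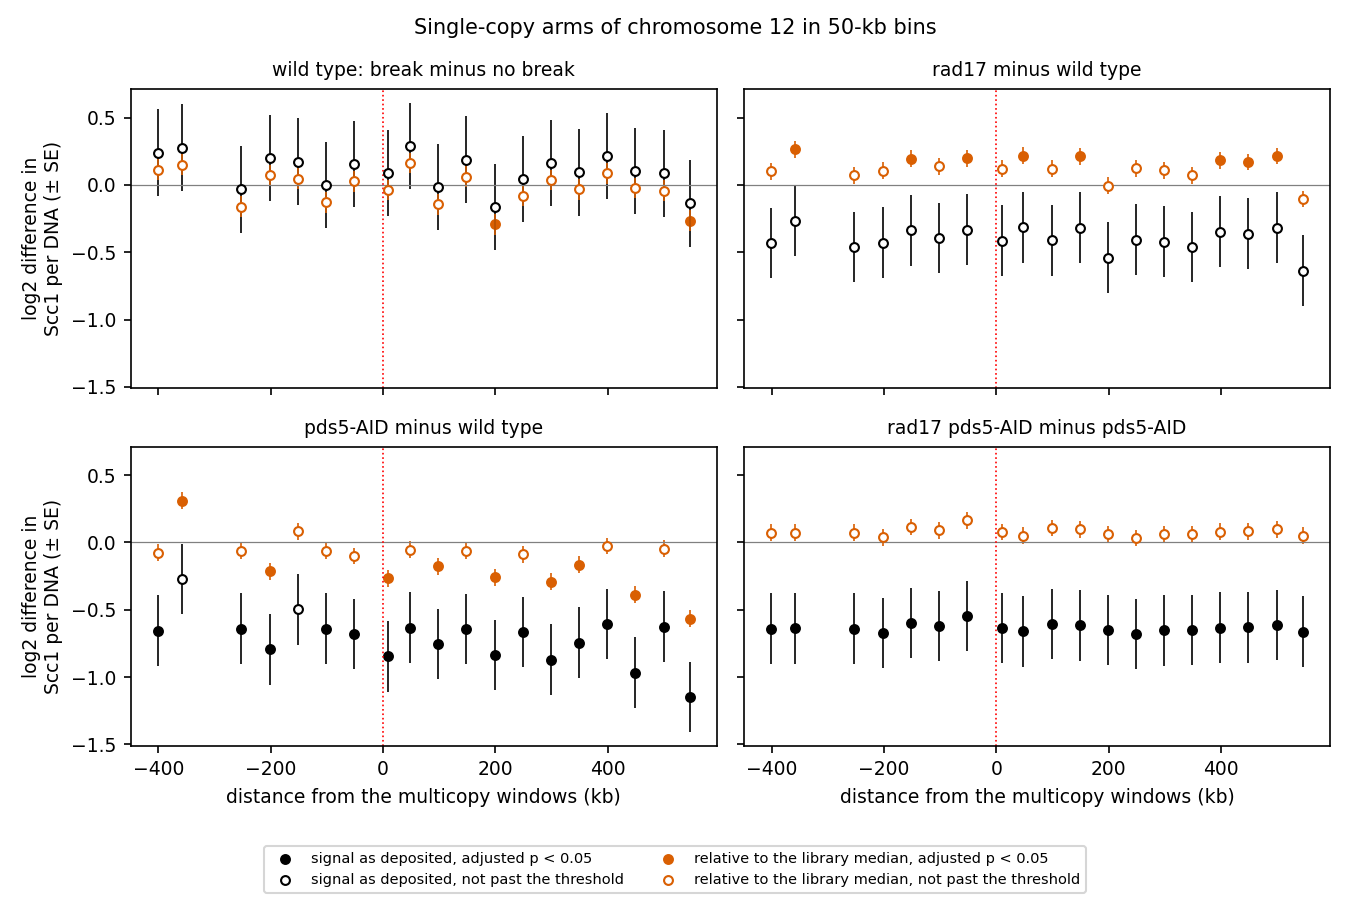
Differences in Scc1 per DNA (y axis, log2, bars ± SE) in bins of 50 kb of the single-copy arms, by distance in kb from the multicopy windows, for the 4 comparisons, with the signal as deposited (black) and relative to the library median (orange), and filled points past an adjusted p of 0.05. In pds5-AID the outermost bin is lowest at -1.15, and in rad17 pds5-AID against pds5-AID all 19 bins lie between -0.68 and -0.55.

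The break lies on another chromosome, 5, where extracts with a break were lowest against those without at 119001 to 120000, and the arms of chromosome 12 differed between break and no break by less than the error. The single-copy arms stood at 4.63 and 4.79 with a break and at 4.60 without, a difference of 0.11 ± 0.31 (SE, limma adjusted p = 0.812), it was 0.0677 for the IP alone (0.919), and the Pk pair differed by 0.25. No bin passed with the signal as deposited (0 in limma, 0 at an unadjusted p under 0.05). Of the 19 bins, 2 fell relative to the library median, beside 9.76% of all bins, those from 650001 to 700000 (-0.29) and from 1000001 to 1050000 (-0.27), and with each bin's own spread none did in limma (3 at an unadjusted p under 0.05).

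Of the member windows 6 rose and 27 fell with a break, beside 1.18% and 3.59% of all windows. For the IP alone 1 rose, beside 0.369% of all windows, and 0 fell in limma (4 at an unadjusted p under 0.05). With each window's own spread 0 passed in limma (92 rises and 23 falls at an unadjusted p under 0.05). With the extract as deposited 10 fell, beside 1.32% of all windows. Rises and falls together numbered 2 without the first wild-type library, 73 without the second and 72 without either pds5-AID library. The counts relative to the library median were 34 and 120, beside 5.97% and 12.1%. The largest rise was at 594001, where Scc1 per DNA was 1.90 and 1.94 with a break and -0.07 without (1.99 ± 0.39, limma adjusted p = 0.000116). For the IP alone it had 1.29 (limma adjusted p = 0.0452), the other 4 of the top 5 had 0.48 to 0.79 (adjusted p of 1.00 each), and the Pk pair stood at 1.62 and 0.79. The largest falls peaked at 1027001, 853001, 371001, 486001 and 412001, by 1.75 to 2.09 in size. For the IP alone these 5 had 0.04, 0.11, -0.83, -0.23 and -0.09 and none passed. The relative extract of the HA no-break library in them was 0.12 to 0.31. Its part in these falls was not tested beyond the values for the IP alone.

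In the Pk libraries, with 1 per condition and no test, the block stood at 3.90 in wild type with a break, 3.64 without a break, 3.77 in rad17 and 4.38 without nocodazole. The single-copy arms stood at 4.25, 4.00, 4.09 and 4.42 in the same order. The library without nocodazole was the highest in both and had the lowest IP depth.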

How the data were processed

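Scc1 ChIP-seq was read from 14 IP libraries and their 14 extracts. The submitters' processing notes list MACS2, Bowtie2, bedtools and SAMtools, with no version. The build and the handling of reads with several matches are not given in the sources used here. In the files the authors deposited signal (coverage) per window of 1 kb. The series description states calibration with Candida glabrata. In the deposited extracts the smallest value above 0 is 1, and in the IPs it is 0.0535 to 6.20, so the IP signal was scaled and the extract signal was not.

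Each IP was divided by its own extract, the extract being set relative to its median. For windows, log2 used a pseudocount of 5% of the median, so that the change of low windows is understated. Windows with a mean relative extract under 0.25 over the HA libraries were left out, which kept 11642 of 12447. A region's level is log2 of its mean IP over its mean relative extract, with no pseudocount. The median over kept windows was subtracted for values relative to the library median.

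The 5 HA groups (9 libraries, 4 residual degrees of freedom) were fitted with limma 3.58.1 in R 4.3.3. For the signal as deposited and the IP alone, limma gave 1 spread shared by all features. For windows and regions relative to the library median, and for the extract, the spread differed between features. The lone library without a break was taken to vary like the other groups. P-values were adjusted by Benjamini and Hochberg over 80 regions, 246 bins of 50 kb or 11642 windows, with a threshold of 0.05. Differences within libraries were tested by an exact sign-flip test over libraries. The code (Python 3.11.15, numpy 2.4.6, pandas 2.3.3) was tested on simulated data. The Pk and untagged libraries, with 1 per condition, were not tested. On the other chromosomes, windows within 100 kb of the break were left out of the arms. Calibration and depth limit the precision of each library's level, and no counts were given from which to compute intervals.

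Named windows are the peaks of the 5 stretches of called windows with the largest change in each direction, and the 10 strongest sites were taken from a Pk library. The members and lists were chosen with earlier results of these data known. Alternatives covered the extract, pseudocount, filter, spread, scaling, region limits, a replicate block and leaving out each HA library. Values relative to the library median for bins, for the IP alone and with each region's own spread, the extract median over kept windows, the results without the 3 uneven extracts, and the replicate block without the first wild-type library were chosen after seeing the data.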

Additional observations from a re-analysis of the deposited data

How the results depend on the processing

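Of 350 values of the comparisons under another setting, 266 kept their direction and their side of the threshold, and for single windows 340 of 495 did. The cause was not tested for any that changed. In the block, the difference between break and no break turned to -0.15 with a common extract, the IP alone or the extract as deposited, and to -0.38 for the IP alone relative to its median. On the single-copy arms it was -0.0169 relative to the library median, -0.55 with the extract as deposited and -0.16 for the IP relative to its median. The windows at 1027001 and 853001 turned to 0.0362 and 0.106 with a common extract and for the IP alone.

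For rad17 against wild type, the block had 0.50 relative to the library median and 0.24 with the extract as deposited, and the single-copy arms had 0.13 relative to the median and 0.0946 for the IP relative to its median. For pds5-AID the block had 0.46 relative to the median, 0.0264 with the extract as deposited and 0.14 for the IP relative to its median. The single-copy arms lost their call relative to the median (-0.11), with the extract as deposited (-0.55), with each region's own spread (-0.69) and as a median over windows (-0.52). The sites at 225001 and 634001 had 0.0405 and 0.0429 relative to the median. For rad17 pds5-AID against pds5-AID the block lost its call relative to the median (-0.13), with the extract as deposited (-0.89), for the IP relative to its median (-0.34) and with its own spread (-0.85). On the single-copy arms the values were 0.0781 relative to the median and 0.0752 for the IP relative to its median, -0.68 with the extract as deposited and -0.63 with own spread.

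Called member windows numbered 33 for the break, 45 for rad17, 295 for pds5-AID and 169 for rad17 pds5-AID. In that order they numbered 10, 0, 7 and 0 with the extract as deposited, beside 1.32%, 0%, 0.876% and 0.206% of all windows that fell. With own spread they numbered 0 in each. For the IP alone and with a common extract they numbered 1, 6 and 538 for the break, rad17 and rad17 pds5-AID (351 for pds5-AID with the IP alone), and relative to the median 154, 0 and 0. A pseudocount of 1% gave 53 for the break and 105 for rad17 pds5-AID, and 20% gave 7 and 394. The outer less the inner right arm was -0.0469 without the 3 uneven extracts (p = 0.0410, exact, n = 10). The single-copy arms less the other arms were -0.0164 with the untagged signal subtracted (p = 0.0464, exact, n = 13).

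Leaving out 1 library at a time, the break effect on the extract of the block ran from -0.90 to -0.42, that of rad17 from -0.83 to -0.35 and that of pds5-AID from -0.53 to -0.0493. The rad17 effect on Scc1 in the block ran from -0.26 to 0.20, reversed without the second wild-type library (0.03) and the first rad17 library (0.20). The pds5-AID effect on the single-copy arms ran from -0.96 to -0.43. For rad17 pds5-AID against pds5-AID the block ran from -0.90 to -0.79 and the single-copy arms from -0.90 to -0.37. The difference between the rad17 effects ran from -0.50 to 0.0309 on the single-copy arms, positive without the second pds5-AID library. Counts of windows ran from 2 to 73, 0 to 99, 91 to 415 and 0 to 628 in the order above.

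Replicate 1 less replicate 2, over all kept windows, correlated between groups by 0.0842 to 0.341 in 6 pairs of groups, with 5 over 0.1, so the numbers were not taken to pair the libraries. Replicate 2 stood above replicate 1 on the single-copy arms in all 4 HA groups with a break. With the replicate number as a block, rad17 passed on the single-copy arms at -0.40 (limma adjusted p = 0.00269), but not when the first wild-type library was also left out (-0.28, 0.130). In the multicopy windows the rad17 effects differed by -0.82 under the block, a value that includes the extract which chose these windows. Without that library, a fit chosen after seeing the data that leaves 1 wild-type library, they differed by -0.84. Under the block 324, 486 and 756 member windows were called for rad17, pds5-AID and rad17 pds5-AID, of which 324, 485 and 756 were falls, beside 42.2%, 58% and 88.6% of all windows.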
